A study of Mus musculus with 34 samples.

Results

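The secreted ligands of the transforming growth factor beta (TGF-beta) superfamily and the secreted proteins that block or shape them were followed in sorted stromal cells of mouse tissues. The 37 genes were taken by symbol from a fixed list, 27 ligands or ligand subunits, the proteinase gene Bmp1 and 9 antagonists, and all 37 matched an identifier among the 51826 in the deposited count tables. The 34 libraries of polyadenylated RNA fall into 12 groups. Mesothelial cells, which cover the organs and walls of the body cavities, came from omentum, mesentery and epididymal fat (9 libraries), and fibroblasts (25 libraries) came from the same 3 depots and from bone, lymph node, spleen, pancreas, inguinal fat and brown adipose tissue. All cells were sorted as podoplanin-positive and negative for CD45, CD31 and Epcam, PDGFRA-negative for mesothelial cells and PDGFRA-positive for fibroblasts, and went straight into TRIZOL. All libraries are also labelled GFP-negative, and no label says what the GFP marks. Pancreas and spleen fibroblasts have 2 libraries each and every other group has 3. By the labels the fat of the omentum, mesentery and epididymis is visceral, and inguinal fat and brown adipose tissue are subcutaneous. Strain, age, sex and the number of animals are not given in the labels, so a p-value covers only how these libraries vary among themselves.

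Ligands of the family are made as precursors, cut by furin-type proteinases and secreted as dimers, which bring type I and type II receptor kinases together. TGF-betas, activins and myostatin signal mainly through Smad2 and Smad3, and most bone morphogenetic proteins (BMPs) through Smad1, Smad5 and Smad8 (gene Smad9). The growth and differentiation factors (GDFs) do not all use the same Smads. Much of the control lies outside the cell. Noggin, chordin, gremlin 1 and BMPER bind BMPs, follistatins bind activins and myostatin, and BMP1 and the tolloid proteinases cut chordin. Stromal cells are a main source of these proteins, which are known for their part in bone formation, fat cell commitment, fibrosis and lymphoid stroma.

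The results turn most on 4 members, the BMP ligand gene Bmp4, the antagonist genes Bmper and Grem1, and the ligand gene Gdf10. Bmp4 was higher in mesothelial cells, while Bmper and Gdf10 were lower there in each depot and Grem1 in the omentum and mesentery, and their promoters are shown so that genes that went opposite ways can be compared. The sequences are RefSeq's on GRCm38.p6, from 250 bases before to 50 bases after the annotated start, written 5′ to 3′ on the gene's strand. They lie at chr14:46390620-46390919 (minus strand) for Bmp4, chr9:23222826-23223125 (plus) for Bmper, chr14:33923337-33923636 (plus) for Gdf10 and chr2:113758599-113758898 (minus) for Grem1. Capitals mark GGCGCC, a GC-rich motif bound by BMP-activated Smads, and GGGCGG, the GC box, on either strand, and matches that overlap run together.
Bmp4: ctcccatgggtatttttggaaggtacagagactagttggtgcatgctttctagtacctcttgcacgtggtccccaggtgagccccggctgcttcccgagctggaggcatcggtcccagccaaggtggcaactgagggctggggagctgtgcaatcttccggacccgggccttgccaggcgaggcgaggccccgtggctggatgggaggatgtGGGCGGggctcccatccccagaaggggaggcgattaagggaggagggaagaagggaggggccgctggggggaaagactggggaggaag
Bmper: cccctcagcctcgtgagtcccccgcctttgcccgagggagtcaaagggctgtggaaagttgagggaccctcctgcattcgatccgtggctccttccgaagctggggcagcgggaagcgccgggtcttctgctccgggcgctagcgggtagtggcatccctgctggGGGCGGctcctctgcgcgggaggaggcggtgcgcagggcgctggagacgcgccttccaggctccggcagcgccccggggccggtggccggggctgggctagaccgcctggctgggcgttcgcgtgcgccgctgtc
Gdf10: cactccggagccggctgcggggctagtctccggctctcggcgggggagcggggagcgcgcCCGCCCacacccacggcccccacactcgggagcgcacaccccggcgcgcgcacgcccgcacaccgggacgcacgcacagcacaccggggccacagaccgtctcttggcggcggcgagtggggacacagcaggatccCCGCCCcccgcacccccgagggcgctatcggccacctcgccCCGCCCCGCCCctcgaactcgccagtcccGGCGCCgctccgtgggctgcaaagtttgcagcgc
Grem1: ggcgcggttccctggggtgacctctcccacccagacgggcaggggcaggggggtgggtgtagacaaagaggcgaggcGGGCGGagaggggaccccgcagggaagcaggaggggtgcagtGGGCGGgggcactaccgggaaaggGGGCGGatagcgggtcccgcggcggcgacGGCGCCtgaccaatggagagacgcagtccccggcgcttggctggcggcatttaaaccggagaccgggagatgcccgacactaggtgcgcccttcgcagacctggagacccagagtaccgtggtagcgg
GGCGCC was found 1 time in Gdf10 and 1 time in Grem1, and 11.9% of 32851 RefSeq promoters of the same length hold it. GGGCGG was found 1 time in Bmp4, 1 time in Bmper, 4 times in Gdf10 and 3 times in Grem1, and 35.7% of all promoters hold at least 1 match. CAGAC, the short Smad-binding element, was found 1 time in Gdf10 and 2 times in Grem1, and 49.6% of promoters hold it. The TATA sequence TATAAA was found in none of the 4, and 13.6% of promoters hold it. Their GC content was 64% in Bmp4, 72.7% in Bmper, 77.3% in Gdf10 and 70.7% in Grem1. The shares of promoters with each motif were not matched for GC content, so they give no expected number of matches for these 4. Of the 37 members, 24 have a promoter in the RefSeq table.

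Library totals ran from 28.7 M to 42.3 M counts, with a median of 33.5 M. Levels are in CPM, each count set over its library total as scaled by TMM. Each difference is a log2 fold change with its SE, tested by edgeR's quasi-likelihood method and adjusted by Benjamini-Hochberg over 25705 genes. A call needs an adjusted p under 0.05 together with a change of 1 or more on the log2 scale in either direction. Summed fibroblast markers were 22530 to 29154 CPM in mesothelial libraries and 19276 to 176387 CPM in fibroblast libraries. Summed mesothelial markers were 7902 to 11691 CPM in mesothelial libraries, 596 to 880 CPM in omentum fibroblasts and at most 182 CPM in all other fibroblasts. Leukocyte markers were 635 to 772 CPM in omentum, 842 to 1862 CPM in mesentery and 104 to 246 CPM in epididymal mesothelial libraries. In fibroblasts of these depots they were 388 to 551 CPM, 16.6 to 45.5 CPM and 34.1 to 84 CPM in the same order. Their part in the differences between mesothelial cells and fibroblasts, and between depots, was not tested. In 8 libraries pancreatic acinar transcripts reached 1000 CPM or more: both pancreas fibroblast libraries (29949 and 100774 CPM), omentum mesothelial replicate 1, mesentery mesothelial replicates 1 and 2, mesentery fibroblast replicate 1 and omentum fibroblast replicates 1 and 3. Every comparison but that of pancreas fibroblasts, which have no library left, was also fitted without these 8. That fit ended 43 calls, and each is given with its value or adjusted p where its comparison is described. Bulk RNA cannot tell fewer cells of a type from less RNA per cell.

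Of the 9 antagonist genes 8 reached a group mean of 10 CPM, as did 5 of 9 BMP genes and 2 of 10 GDF genes. Per kilobase of exon, the highest group mean was that of Fstl1, which encodes a follistatin-like glycoprotein, with 1364 CPM per kb in inguinal fibroblasts and a median of 572 CPM per kb over the 12 groups. Next came Bmper with 117 CPM per kb in epididymal fibroblasts, Twsg1, which encodes the chordin partner twisted gastrulation, with 116 CPM per kb in omentum mesothelial cells, and Chrdl1, which encodes the BMP antagonist chordin-like 1, with 100.3 CPM per kb in lymph node fibroblasts. Among the ligands Tgfb3 was highest, with 92.7 CPM per kb in mesentery mesothelial cells, followed by Bmp4 with 51.1 CPM per kb in the same cells, Gdf10 with 46.2 CPM per kb in spleen fibroblasts and Bmp3 with 44.3 CPM per kb in bone fibroblasts. By CPM, 9 members had a group mean of at least 100, another 11 reached 10, another 9 reached 1, and 8 stayed under 1 in every group.

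**Figure D1:**
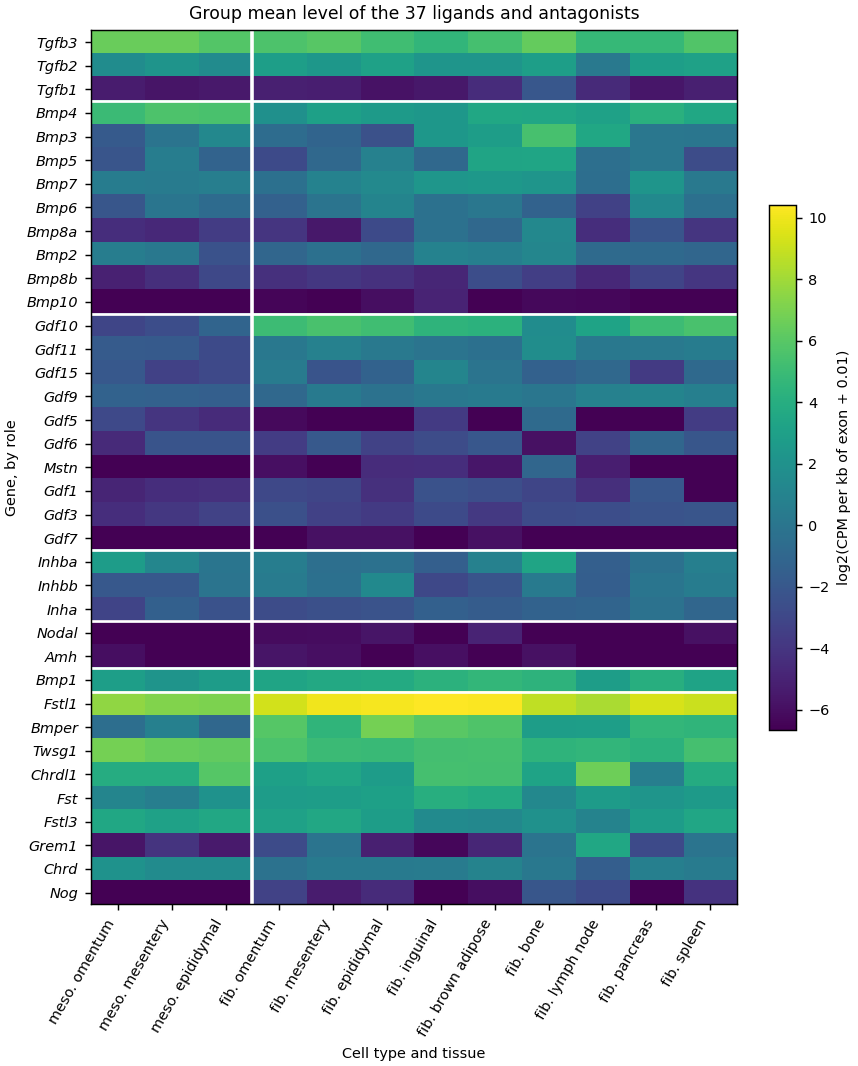
Group mean levels of the 37 genes as log2 of CPM per kilobase of exon plus 0.01, with mesothelial groups left of the fibroblast groups and genes blocked by role (TGF-beta, BMP, GDF, activin and inhibin subunits, Nodal and Amh, Bmp1, antagonists). Fstl1 is the brightest line, at up to 1364 CPM per kb, while Tgfb1 stays dark beside Tgfb2 and Tgfb3.

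The 3 TGF-beta genes differed widely in their deposited counts. Tgfb3 had 82.3 to 314 CPM and Tgfb2 6.71 to 50.3 CPM as group means, while Tgfb1 had at most 1.54 CPM in any library and 188 counts in all 34. Its exons overlap no other gene in the annotation. The coding transcripts of Tgfb1 average 62.5% GC, and the 903 coding genes with 60 to 64% GC had a median of 0.896 CPM, against 6.99 CPM for the 4256 genes with 52 to 56% GC. The part of GC content in the count of Tgfb1 was not tested, nor was that of the counting step, which the sources do not give. The low count alone does not show that these cells hold little Tgfb1 RNA. The 4 members that failed the filter on low counts were Bmp10, Gdf7, Nodal and Amh, with 15, 3, 10 and 6 counts over all libraries. Exons of Gdf1, a left-right patterning ligand gene, lie wholly within Cers1 on the same strand, so its 143 counts cannot be assigned with confidence. No source states that counting used strand, and 47.3% of Fstl3 exon bases and 46.7% of Bmp5 exon bases lie opposite another gene, Prss57 with 1274 counts and Gm26903 with 291 counts, against 21054 for Fstl3 and 10329 for Bmp5. Smaller stretches lie opposite genes with far more counts, 5.74% of Bmp6 exon bases (3976 counts) opposite Txndc5 (91320 counts) and 3.43% of Bmp8b exon bases (282 counts) opposite Ppie (43156 counts).

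Set against fibroblasts of the omentum, mesentery and epididymal fat, mesothelial cells had 17 of the 33 members tested called (51.5%, against 21.4% of all genes tested), 7 higher (against 12.3% of all genes) and 10 lower (against 9.08%). The median log2 fold change over the 33 was -0.18, against 0.11 over all genes. Of the 9 antagonist genes, 3 were higher and 5 lower. Of the 23 ligand genes, 4 were higher and 5 lower, and none of the 3 TGF-beta genes was called in the mean of the depots. A call in the mean need not hold in each depot. Bmp3, among the 4 higher, was lower in the omentum (-1.25) and highest over fibroblasts in epididymal fat (3.79). Chrdl1, among the 3 higher antagonist genes, was called by depot in epididymal fat alone.

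Bmp4 (ENSMUSG00000021835, chromosome 14, 46383520 to 46390669), a ligand that patterns mesoderm and supports fat cell commitment, was the ligand gene raised most firmly in mesothelial cells. It had 79.4, 70.2 and 62.8 CPM in omentum mesothelial cells, against 10.1, 6.84 and 8.96 CPM in omentum fibroblasts. In the mesentery it had 123, 123 and 98.5 CPM in mesothelial cells, against 24.2, 13.6 and 17.7 CPM in fibroblasts. In epididymal fat it had 91.7, 109 and 102 CPM in mesothelial cells, against 13.8, 12.1 and 16 CPM in fibroblasts. Every mesothelial library was above every fibroblast library of all 9 tissues, where the highest value was 42.7 CPM in a pancreas library. The mean difference was 2.84 ± 0.16 (edgeR's quasi-likelihood test, adjusted p = 3.25e-16), and the depot values were 3.04, 2.63 and 2.85.

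Inhba, the beta-A subunit of activin A, was also higher in mesothelial cells over the depots (1.38 ± 0.25). It had 30.3, 55.6 and 48.6 CPM in omentum mesothelial cells, against 7.95, 7.66 and 12.6 CPM in omentum fibroblasts. In the mesentery it had 13, 9.93 and 20.9 CPM in mesothelial cells, against 5.07, 4.96 and 4.49 CPM in fibroblasts. The groups did not overlap in either depot, but the mesentery call was lost without mesothelial replicate 3, where the log2 fold change was 1.24. In epididymal fat the ranges overlapped, with 3.64 to 9.7 CPM in mesothelial cells and 3.15 to 9.24 CPM in fibroblasts. Gdf5, a joint-forming ligand gene, was called higher (4.88 ± 1.66) on at most 0.553 CPM in any mesothelial library. The call was lost without epididymal mesothelial replicate 3 (3.32), without mesentery mesothelial replicate 1 (3.84), without the 8 acinar-rich libraries (4.92, adjusted p = 0.334) and with DESeq2.

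Gdf10 (ENSMUSG00000021943, chromosome 14, 33923587 to 33937983), also known as BMP3B and related to Bmp3, fell further than any other member in mesothelial cells. It had 0.529, 0.468 and 0.711 CPM in omentum mesothelial cells, against 184, 139 and 207 CPM in omentum fibroblasts. In the mesentery it had 1.26, 0.348 and 0.813 CPM in mesothelial cells, against 237, 203 and 263 CPM in fibroblasts. In epididymal fat it had 1.99, 3.61 and 1.32 CPM in mesothelial cells, against 205, 213 and 138 CPM in fibroblasts. No mesothelial library reached the lowest fibroblast library of any tissue, 11.5 CPM in bone. The mean log2 fold change was -7.58 ± 0.21 (edgeR's quasi-likelihood test, adjusted p = 2.28e-24).

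Of the other ligand genes lower in mesothelial cells, Gdf11, a close relative of myostatin, averaged 0.537 to 1.14 CPM by depot in mesothelial cells, against 4.58 to 7.27 CPM in fibroblasts (-2.62 ± 0.19), with no overlap. Inhbb, the activin beta-B subunit gene, had 0.711 to 5.32 CPM in mesothelial libraries, against 2.1 to 15.5 CPM in fibroblast libraries, and was lower in each depot (mean -1.89 ± 0.22). Gdf15, a stress-induced ligand gene (-1.78 ± 0.45), and Gdf9, an oocyte growth factor gene (-1.15 ± 0.26), were also called lower, below 4 CPM on both sides. The Gdf15 call was lost without the acinar-rich libraries (-1.63, adjusted p = 0.0647).

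Among the antagonist genes Bmper (ENSMUSG00000031963, chromosome 9, 23223076 to 23485200), whose product binds BMPs and can block or aid their signal, showed the largest difference. It had 3.45, 3.58 and 3.42 CPM in omentum mesothelial cells, against 253, 297 and 311 CPM in omentum fibroblasts. In the mesentery it had 7.63, 6.61 and 10.6 CPM in mesothelial cells, against 108, 117 and 105 CPM in fibroblasts. In epididymal fat it had 3.16, 0.0317 and 4.33 CPM in mesothelial cells, against 522, 522 and 647 CPM in fibroblasts. The groups were far apart in each depot, and epididymal mesothelial replicate 2 was near 0. The mean log2 fold change was -5.95 ± 0.29 (edgeR's quasi-likelihood test, adjusted p = 3.04e-16).

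Fstl1 (ENSMUSG00000022816, chromosome 16, 37776873 to 37836514) had 740, 1032 and 1030.3 CPM in omentum mesothelial cells, against 2616, 3026 and 3350.4 CPM in omentum fibroblasts. It averaged 702 ± 146 CPM in mesentery and 654 ± 4.48 CPM in epididymal mesothelial cells, against 5256 ± 388 CPM in mesentery and 5624 ± 438 CPM in epididymal fibroblasts (SD, n = 3 each). It was lower in mesothelial cells in every depot (mean -2.56 ± 0.11, edgeR's quasi-likelihood test, adjusted p = 1.03e-19), yet kept the highest level per length of all members there. Fst, which encodes the activin binder follistatin, had 9.62, 10.7 and 9.51 CPM in omentum mesothelial cells, against 31.7, 30.9 and 31.3 CPM in omentum fibroblasts. In the mesentery Fst had 5.94, 7.09 and 8.13 CPM in mesothelial cells, against 25.9, 40.4 and 32.8 CPM in fibroblasts. The groups were separate in these depots (mean over 3 depots -1.63 ± 0.13), and in epididymal fat the difference just missed the fold threshold.

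Grem1, the gremlin 1 gene, and Nog, the noggin gene, were low in visceral stroma, but not only there. The lowest group mean of Grem1 was 0.00958 CPM in inguinal fibroblasts, and the highest of Nog was 0.376 CPM in bone fibroblasts. Grem1 had 0 to 0.0705 CPM in omentum mesothelial cells, against 0.323 to 0.861 CPM in omentum fibroblasts, and 0.0949 to 0.357 CPM in mesentery mesothelial cells, against 2.09 to 6.47 CPM in mesentery fibroblasts. It was called lower in the omentum (-3.77 ± 0.82) and the mesentery (-4.15 ± 0.45). In epididymal fat it was not called (-0.43 ± 1.19), with 0.0456 to 0.0633 CPM in mesothelial cells, against 0.0618 to 0.0891 CPM in fibroblasts. Without the acinar-rich libraries the omentum value was -3.41, with an adjusted p of 0.104. Nog had no count in any of the 9 mesothelial libraries and averaged 0.0776 CPM in the fibroblasts of the same depots, so that it was at least 8.25-fold lower in mesothelial cells, taking 3 counts over the 9 libraries as the floor. That call was lost without epididymal fibroblast replicate 3 (fitted log2 fold change -3.95), without mesentery fibroblast replicate 1 (-3.13) and without the acinar-rich libraries (-3.37).

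The antagonist genes raised in mesothelial cells in the mean of the depots were Twsg1, Chrd and Chrdl1. Twsg1 had 559, 638 and 591 CPM in omentum mesothelial cells, against 278, 230 and 236 CPM in omentum fibroblasts. It averaged 443 ± 32.8 CPM in mesentery and 417 ± 7.22 CPM in epididymal mesothelial cells, against 166 ± 34.3 CPM and 157 ± 13 CPM in the fibroblasts of these depots (SD, n = 3 each). All 9 mesothelial libraries were above all 25 fibroblast libraries (1.36 ± 0.09, edgeR's quasi-likelihood test, adjusted p = 2.97e-14).

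Chrd, the chordin gene, had 26.6, 29.9 and 19.7 CPM in omentum mesothelial cells, against 6.92, 5.55 and 3.75 CPM in omentum fibroblasts. In the mesentery it had 20.1, 21.2 and 15.8 CPM in mesothelial cells, against 8.11, 6.68 and 9.68 CPM in fibroblasts. In epididymal fat it had 18.4, 26.7 and 11.6 CPM in mesothelial cells, against 9.84, 8.29 and 5.97 CPM in fibroblasts. The groups did not overlap in any depot (mean 1.56 ± 0.15). The epididymal value was 0.90 without mesothelial replicate 2 and the mesentery value was 0.95 without the acinar-rich libraries, under the fold threshold in both cases.

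**Figure D2:**
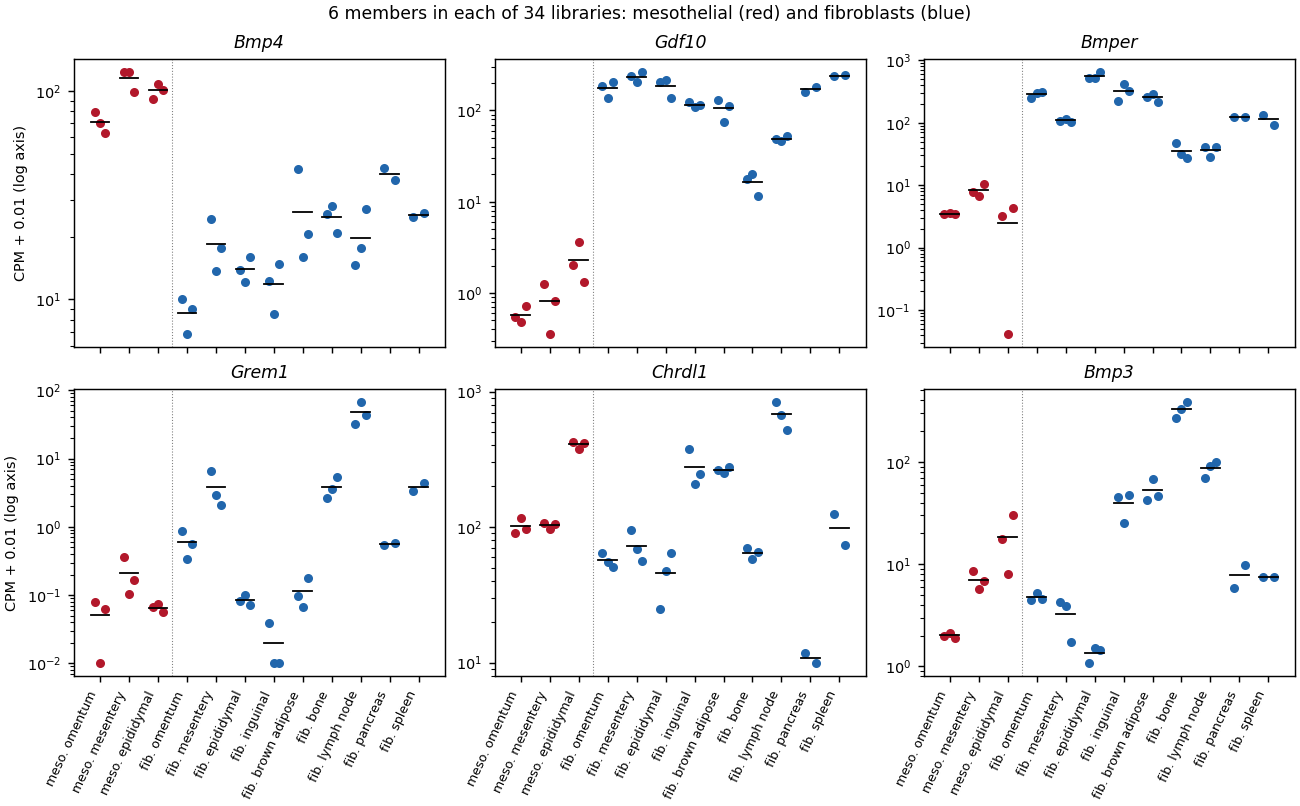
CPM plus 0.01 on a log axis for 6 members in each of the 34 libraries, mesothelial groups in red left of the fibroblast groups in blue, with a bar at each group mean. Bmp4 is highest in all 9 mesothelial libraries, Gdf10 and Bmper are lowest there, Grem1 and Chrdl1 peak in lymph node fibroblasts and Bmp3 peaks in bone fibroblasts.

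By depot, 17 of 33 members were called in the omentum (51.5%, against 16.9% of all genes). Of these 5 were higher (against 8.1% of all genes) and 12 lower (against 8.79%). In the mesentery 15 were called (45.5%, against 18.3%), with 6 higher (against 10.8%) and 9 lower (against 7.53%). In epididymal fat 15 were called (45.5%, against 24.7%), with 5 higher (against 16.6%) and 10 lower (against 8.16%). In epididymal fat the median over all genes was 0.33 on the log2 scale, so fold changes there stand on a shifted middle. Bmp4, Chrd and Twsg1 were higher in all 3 depots, and Bmper, Fstl1, Gdf10, Gdf11 and Inhbb were lower in all 3. Without the acinar-rich libraries Inhbb in the mesentery was -2.05 with an adjusted p of 0.0538. Another 11 members were called in 1 or 2 depots in a single direction. The call of Gdf3, whose product signals like Nodal, as lower in the omentum (-2.16 ± 0.77) was lost on leaving out any of the 6 omentum libraries, with values of -2.36 to -1.86. The omentum calls of Gdf3 (-2.41, adjusted p = 0.125), Gdf15 (-2.47, adjusted p = 0.0687) and Nog (adjusted p = 0.0653) were lost without the acinar-rich libraries, all by edgeR's quasi-likelihood test.

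The mesothelial difference itself varied between depots for 13 members in the joint test (39.4%, against 10.9% of all genes tested). Without the acinar-rich libraries 7 of the 13 kept the call, and Bmp7 (adjusted p = 0.178), Bmp6 (0.124), Gdf10 (0.0828), Bmp1 (0.293), Fst (0.139) and Fstl3 (0.0695) did not. It did so most firmly for Bmp3, a BMP family member that counters the osteogenic BMPs. Bmp3 had 1.97, 2.12 and 1.9 CPM in omentum mesothelial cells, against 4.46, 5.22 and 4.54 CPM in omentum fibroblasts. In the mesentery it had 8.53, 5.73 and 6.88 CPM in mesothelial cells, against 4.22, 3.89 and 1.73 CPM in fibroblasts. In epididymal fat it had 17.6, 7.98 and 29.9 CPM in mesothelial cells, against 1.06, 1.52 and 1.42 CPM in fibroblasts. The omentum thus had a log2 fold change of -1.25 ± 0.37, the mesentery of 1.10 ± 0.34 and epididymal fat of 3.79 ± 0.38. The joint test gave an adjusted p of 2.06e-07 (edgeR's quasi-likelihood test). The omentum call was lost without the acinar-rich libraries (-1.37, adjusted p = 0.119), and the mesentery call without mesothelial replicate 1 (0.83), fibroblast replicate 3 (0.80) or the acinar-rich libraries (1.29, adjusted p = 0.189).

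Bmp2 and Bmp5, both osteogenic BMP genes, also changed direction between depots. Bmp2 was higher in omentum mesothelial cells (1.59 ± 0.43), with 4.48, 5.92 and 5.19 CPM, against 2.18, 1.14 and 1.87 CPM in omentum fibroblasts. It was lower in epididymal mesothelial cells (-1.52 ± 0.53), with 1.25, 0.412 and 0.365 CPM, against 2.27, 1.63 and 1.89 CPM in epididymal fibroblasts. Without omentum fibroblast replicate 2 the omentum value was 1.22 and not called, and the epididymal call ended without mesothelial replicate 2 (-1.30) or 3 (-1.18), fibroblast replicate 1 (-1.39) or 3 (-1.53), or the acinar-rich libraries (-1.53). Bmp5 differed by 1.497 ± 0.44 in the mesentery against -2.07 ± 0.45 in epididymal fat, and its mesentery call was lost without mesothelial replicate 3 (1.11) or fibroblast replicate 3 (1.28).

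Chrdl1 (ENSMUSG00000031283, chromosome X, 143285674 to 143394262) was called higher in mesothelial cells in epididymal fat and in neither other depot. It had 426, 378 and 420 CPM there, against 24.8, 47.5 and 64.6 CPM in epididymal fibroblasts (3.16 ± 0.27). In the omentum it had 90.9, 116 and 97.5 CPM in mesothelial cells, against 64.5, 55 and 51.1 CPM in fibroblasts (0.83), and in the mesentery 108, 96.3 and 106 CPM against 94.6, 68.4 and 56.1 CPM (0.50), neither called. The joint test of the depots gave an adjusted p of 2.12e-06. Summed mural cell markers were 559 to 651 CPM in epididymal mesothelial libraries, against 198 to 332 CPM in other mesothelial libraries and 79.1 to 133 CPM in epididymal fibroblasts. Summed adipocyte markers were 106 to 122 CPM in epididymal mesothelial libraries, against 5.95 to 15.4 CPM in other mesothelial libraries and 159.6 to 221 CPM in epididymal fibroblasts. The part of both in the epididymal values of Chrdl1 and Bmp3 was not tested. Bmper differed by -3.73 ± 0.44 in the mesentery, -6.36 ± 0.51 in the omentum and -7.77 ± 0.54 in epididymal fat (joint adjusted p = 9.75e-05), and Fstl1 by -1.68 in omentum, by -2.91 in mesentery and by -3.10 in epididymal tissue (joint adjusted p = 0.000167, all by edgeR's quasi-likelihood test).

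Tgfb2 and Bmp1 were lower in mesothelial cells of some depots. Tgfb2 had 15, 20.1 and 19.6 CPM in omentum mesothelial cells, against 51, 35.3 and 45.9 CPM in omentum fibroblasts (-1.27 ± 0.20), and 13.4, 19.1 and 19.6 CPM in epididymal mesothelial cells, against 45.2, 57.6 and 47.7 CPM in epididymal fibroblasts (-1.53 ± 0.21). The groups did not overlap in either depot, and in the mesentery the ranges met (-0.19). Without the acinar-rich libraries the omentum value was -0.82 and not called. Bmp1, whose proteinase cuts chordin and procollagens, had 35, 43.2 and 41.6 CPM in mesentery mesothelial cells, against 112, 112 and 115 CPM in mesentery fibroblasts (-1.501 ± 0.21).

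**Figure D3:**
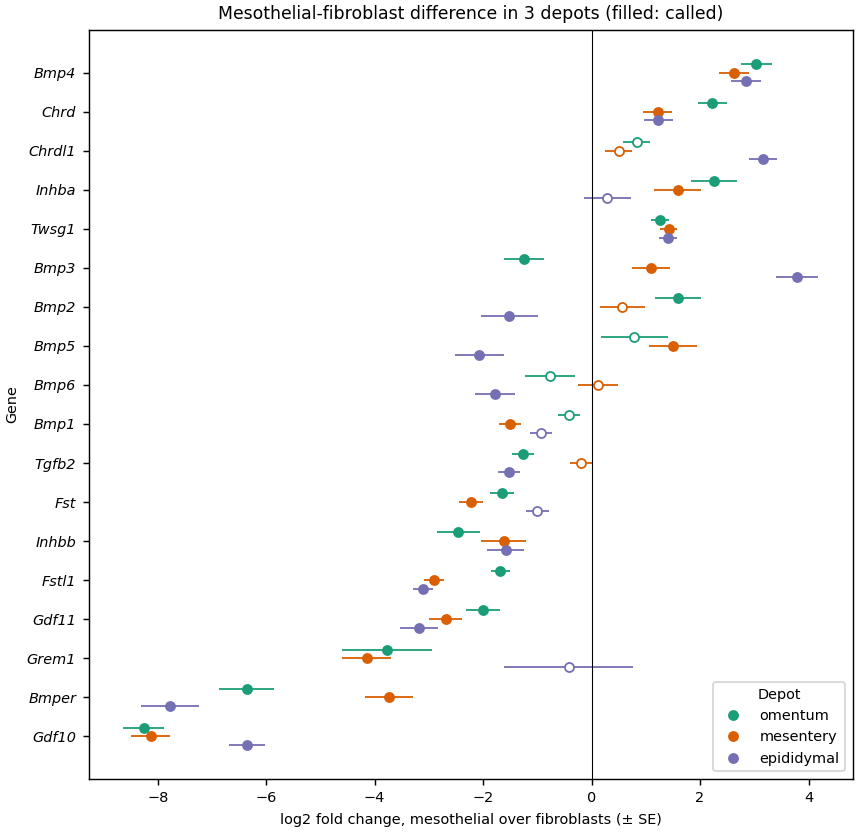
Log2 fold change of mesothelial cells over fibroblasts with its SE in omentum, mesentery and epididymal fat, for members with a group mean of at least 5 CPM that were called in at least 1 depot; filled points were called. Bmp4 and Twsg1 sit at like values in all 3 depots, while Bmp3 runs from -1.25 in the omentum to 3.79 in epididymal fat.

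Mesothelial cells of different depots were also compared directly. Omentum against mesentery gave 4 of 33 calls (12.1%, against 5.15% of all genes), with 1 higher (against 2.36%) and 3 lower (against 2.79%). Omentum against epididymal fat gave 8 (24.2%, against 10.4% of all genes), with 2 higher (against 3.55%) and 6 lower (against 6.83%). Mesentery against epididymal fat gave 8 (24.2%, against 4.18% of all genes), with 3 higher (against 1.98%) and 5 lower (against 2.21%). Inhba was higher in omentum than in epididymal mesothelial cells, with 30.3, 55.6 and 48.6 CPM against 5.61, 3.64 and 9.7 CPM (2.82 ± 0.44, edgeR's quasi-likelihood test, adjusted p = 3.94e-05). Chrdl1 was lower in omentum than in epididymal mesothelial cells (-2.01 ± 0.25) and lower in mesentery than in epididymal ones (-1.98 ± 0.25). Bmp3 was lower in omentum than in epididymal mesothelial cells (-3.21 ± 0.36) and Bmp2 was higher (2.96 ± 0.49). Bmp6, which signals to iron regulation in liver, was lower in omentum than in mesentery mesothelial cells (-2.13 ± 0.42), with 1.02, 1.13 and 0.527 CPM against 3.45, 3.92 and 4.32 CPM. Without the acinar-rich libraries omentum against mesentery lost the calls of Bmp6 (-2.38, adjusted p = 0.0681), Bmp3 (-1.77) and Inhba (1.32), and omentum against epididymal fat those of Bmp6 (-1.49) and Gdf6 (-4.61). Mesentery against epididymal fat lost those of Inhbb (-2.02), Bmper (2.02), Gdf10 (-1.45), Bmp3 (-1.43) and Fst (-1.19).

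The rest of the pathway was read from 7 lists of 79 genes chosen by role. Of 17 genes for latency, storage and activation of ligands, 2 were higher and 8 lower in mesothelial cells (58.8%), against 21.4% of all genes, 12.3% higher and 9.08% lower. Ltbp1, which encodes a protein that tethers latent TGF-beta to matrix, had 0.222 to 8.63 CPM in mesothelial libraries and 200.4 to 523 CPM in fibroblast libraries of the same depots (-6.81 ± 0.29, edgeR's quasi-likelihood test, adjusted p = 1.23e-17). Fbn1 (fibrillin 1, -3.06 ± 0.14) and the proprotein convertase gene Pcsk5 (-3.59 ± 0.11) were lower too, and the tolloid proteinase gene Tll1 (3.01 ± 0.21) was higher. Of 12 other antagonist genes tested, 5 were higher and 2 lower (58.3%). Crim1, which encodes a membrane-bound BMP antagonist, had 32.7 to 66.9 CPM in mesothelial and 4.78 to 8.41 CPM in fibroblast libraries (2.99 ± 0.14), and Wfikkn2, for a myostatin and GDF11 binder, was also higher (3.07 ± 0.19).

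Of 16 receptor genes, 3 were higher and 3 lower in mesothelial cells (37.5%, against the same 21.4% of all genes). The BMP type IB receptor gene Bmpr1b (4.07 ± 0.37) and the anti-Müllerian hormone receptor gene Amhr2 (2.99 ± 0.24) were higher, and the coreceptor gene Eng (endoglin, -4.48 ± 0.23), which endothelium also expresses, was lower. Summed endothelial markers were 41.2 to 112 CPM in mesothelial libraries, against 67 to 107 CPM in omentum, 258 to 428 CPM in mesentery and 369.8 to 491 CPM in epididymal fibroblasts, and their part in the Eng value was not tested. Of 7 target genes of BMP signalling 1 was higher and 3 lower (57.1%). Id1 was higher (1.54 ± 0.23) with overlapping groups, 15.2 to 99.7 CPM in mesothelial and 5.88 to 44.7 CPM in fibroblast libraries, while Id2 was lower (-2.05 ± 0.13), with 43.7 to 102 CPM against 168 to 391 CPM. Of 7 target genes of TGF-beta signalling none was higher and 3 were lower (42.9%), the matrix protein gene Postn most (-8.06 ± 0.34), with 0.76 to 9.997 CPM in mesothelial and 421 to 1253 CPM in fibroblast libraries.

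Among fibroblasts, 30 of the 33 members varied across the 9 tissues in the joint test (90.9%, against 44% of all genes tested). Without the acinar-rich libraries, and so without pancreas, Gdf6, Inha and Gdf9 were not called (adjusted p = 0.0997, 0.352 and 0.112 by edgeR's quasi-likelihood test). In tests of each tissue against the other 8, the fold change is taken from the mean of 8 fitted log2 levels, so a single high tissue weighs less than in a mean of CPM. Each share that follows the word against is that of all genes tested. In bone 17 members were called (51.5%, against 19.5%), with 13 higher (against 12.8%) and 4 lower (against 6.65%). Lymph node had 16 (48.5%, against 16.4%), with 4 higher (against 9.32%) and 12 lower (against 7.13%). Inguinal fibroblasts had 13 (39.4%, against 6.3%), with 9 higher (against 3.35%) and 4 lower (against 2.96%). Brown adipose fibroblasts had 10 (30.3%, against 6.41%), with 7 higher (against 3.66%) and 3 lower (against 2.75%). Omentum fibroblasts had 9 (27.3%, against 10%), with 3 higher (against 7.64%) and 6 lower (against 2.38%). Mesentery fibroblasts had 5 (15.2%, against 3.5%), with 3 higher (against 2.19%) and 2 lower (against 1.31%). Epididymal fibroblasts had 6 (18.2%, against 4.43%), with 3 higher (against 2.5%) and 3 lower (against 1.93%). Pancreas fibroblasts had 8 (24.2%, against 11%), with 5 higher (against 8.65%) and 3 lower (against 2.31%). Spleen fibroblasts had 7 (21.2%, against 3.88%), with 4 higher (against 3.47%) and 3 lower (against 0.416%). Bmp3 was called in all 9 of these tests, and Grem1 and Bmp7 in 7 each.

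**Figure D4:**
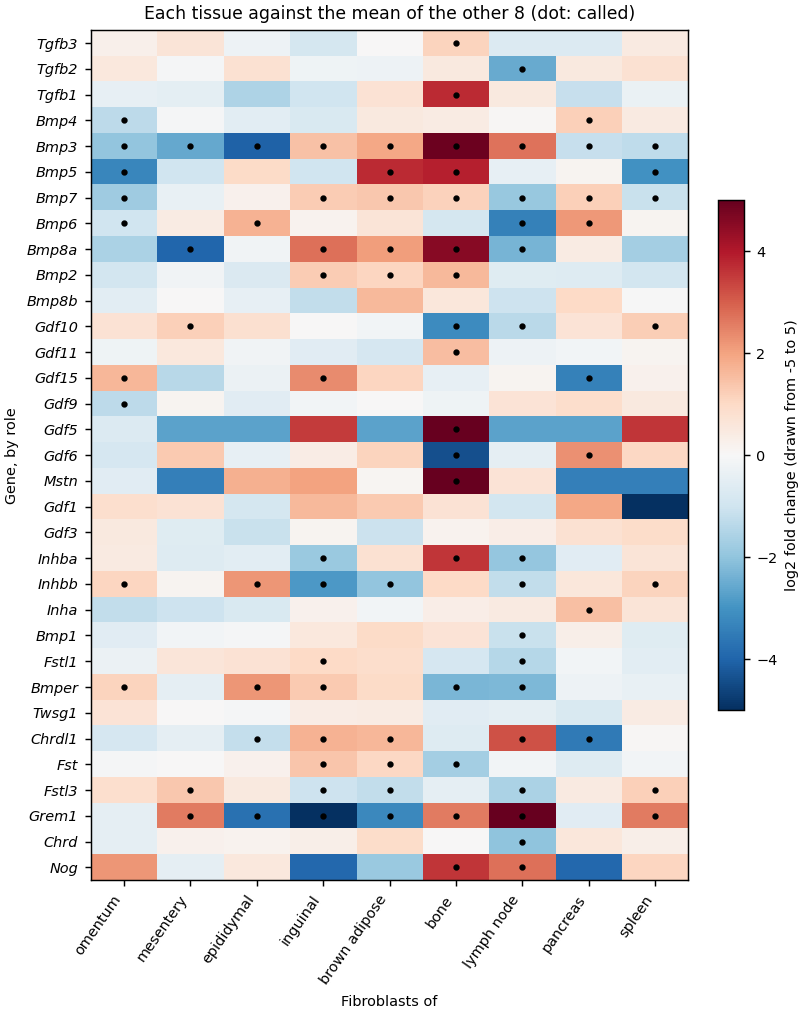
Log2 fold change of the fibroblasts of each tissue against the mean of the other 8, for the 33 members tested, drawn from -5 to 5, with a dot on each call. In the ligand block bone has 11 genes called higher and 2 lower, where 12.8% of all genes tested were higher and 6.65% lower. Lymph node has 1 higher and 7 lower, against 9.32% and 7.13% of all genes. The 11 include Tgfb1, Gdf5 and Mstn, which may have passed the filter on low counts only through bone.

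In bone fibroblasts 11 of 23 ligand genes were higher and 2 lower, where 12.8% of all genes were higher and 6.65% lower. The counts of higher genes in bone include Tgfb1, Gdf5 and Mstn, whose medians over the 12 group means were 0.0801, 0.0422 and 0.0083 CPM. These genes may have passed the filter on low counts only through bone. Being tested and being called higher in bone would then not be independent for them. Bmp3 (ENSMUSG00000029335, chromosome 5, 98854415 to 98884396) had 267, 328 and 387 CPM in bone, and group means of 1.33 to 86.5 CPM in the other 8 tissues (4.89 ± 0.18, edgeR's quasi-likelihood test, adjusted p = 1.63e-20). Inhba had 58.9, 58.9 and 76.9 CPM in bone, and group means of 2.18 to 11.5 CPM elsewhere (3.58 ± 0.25). Both genes were higher in each bone library than in any other fibroblast library. Bmp5 had 41.2, 43.8 and 43.7 CPM in bone (3.88 ± 0.24), within the range of brown adipose tissue, where the libraries had 71.9, 18.6 and 27.9 CPM.

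Tgfb3 had 324, 255 and 275 CPM in bone, and group means of 82.3 to 213 CPM elsewhere (1.13 ± 0.12), with no overlap. At lower levels, bone was higher for Gdf11 (15.3, 11.3 and 13.8 CPM; 1.52 ± 0.18) and for Bmp8a, a relative of the osteogenic BMPs, with 4.98, 5.05 and 7.86 CPM, against 0.0281 to 1.96 CPM as means elsewhere (4.55 ± 0.26). Tgfb1 also was higher in bone (3.73 ± 0.43) at 0.712, 1.3 and 1.54 CPM. Bmp2 was higher (1.62 ± 0.28), and the Bmp7 call (1.15 ± 0.16) was lost without bone replicate 3 (0.90).

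Gdf5 (6.96 ± 0.93) and Mstn, the muscle growth inhibitor myostatin (6.17 ± 0.74), were higher in bone at 0.334 to 2.01 CPM and 0.355 to 2.27 CPM. With DESeq2 Mstn was not called in bone (6.04, adjusted p = 0.187). Summed skeletal muscle markers were 4524, 4513 and 307 CPM in bone replicates 1, 2 and 3, where Mstn had 1.35, 2.27 and 0.355 CPM, and at most 20.6 CPM in all other groups. Osteoblast and cartilage markers summed to 13552 to 19497 CPM in bone and to at most 4.09 CPM elsewhere. Their part in the bone values was not tested.

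Antagonist genes in bone went both ways. Grem1 had 2.63, 3.57 and 5.41 CPM in bone (2.60 ± 0.29) and Nog 0.142, 0.669 and 0.316 CPM (3.59 ± 0.75). Nog had 83 counts over all libraries and a median of 0.0167 CPM over the 12 group means. It may have passed the filter on low counts mainly through bone and lymph node, where it was called higher. Being tested and being called higher there would then not be independent. Fst was lower, with 11.8, 11.6 and 10.4 CPM in bone and group means of 21.5 to 76 CPM elsewhere (-1.71 ± 0.19). Bmper had 47.4, 31.3 and 27.3 CPM in bone, near the 36.3 CPM mean of lymph node, and up to 564 CPM elsewhere (-2.28 ± 0.36). Of the ligand genes, Gdf10 was lowest in bone among fibroblasts, with 17.9, 19.9 and 11.5 CPM, against group means of 49 to 241 CPM (-3.14 ± 0.25), and Gdf6, a joint and eye patterning gene, was called lower (-4.40 ± 1.31), a call lost without bone replicate 2 (-3.87) or without the acinar-rich libraries (-4.00).

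Genes downstream of the receptors in bone were called higher or not called, where 19.5% of all genes were called, 12.8% higher and 6.65% lower. Of 7 TGF-beta target genes 5 were higher and none lower (71.4%), among them the matricellular gene Ccn2, with 165 to 240.5 CPM in bone and 3.86 to 62.4 CPM in other fibroblasts (3.29 ± 0.21). Of 13 Smads and intracellular brakes 5 were higher and none lower (38.5%), with Bambi, which encodes a decoy receptor, at 140 to 197 CPM against 1.37 to 21 CPM (4.60 ± 0.30, edgeR's quasi-likelihood test, adjusted p = 1.4e-12). Of 7 BMP target genes 3 were higher and none lower (42.9%), Hey1 most (2.85 ± 0.26). Of 16 receptor genes 2 were higher and 6 lower (50%), with the coreceptor betaglycan gene Tgfbr3 at 47 to 67.9 CPM in bone against 134 to 336 CPM elsewhere (-1.92 ± 0.16).

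Of the 9 antagonist genes 3 were higher and 4 lower in lymph node fibroblasts. Grem1 (ENSMUSG00000074934, chromosome 2, 113746164 to 113758646) had 32, 67.7 and 43.5 CPM there, and group means of 0.00958 CPM in inguinal fat to 3.87 CPM in bone among the other 8 tissues (6.69 ± 0.20, edgeR's quasi-likelihood test, adjusted p = 4.37e-28). Chrdl1 had 840, 671 and 523 CPM in lymph node, and group means of 10.8 to 277 CPM elsewhere (3.18 ± 0.15). For both genes each lymph node library was above every other fibroblast library. Bmp3 had 68.9, 90.9 and 99.6 CPM, second to bone (2.73 ± 0.19). Nog was called higher (2.74 ± 0.81) at 0.113 to 0.356 CPM, a call lost without lymph node replicate 3 (2.31) and with DESeq2. The limit given for Nog in bone, that it may have passed the filter through these groups, holds here too.

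Other members were low in lymph node. Tgfb2 had 7.87, 6.38 and 5.87 CPM there, and group means of 27.2 to 50.3 CPM elsewhere (-2.51 ± 0.19, edgeR's quasi-likelihood test, adjusted p = 1.16e-12). Fstl1 had 1541, 1404 and 1514 CPM, below every other fibroblast library (-1.43 ± 0.15), and Chrd had 1.91, 1.95 and 2.31 CPM, against group means of 5.4 to 12.6 CPM (-2.03 ± 0.25). Bmp6 had 0.277 to 0.395 CPM (-3.39 ± 0.44). Lower with overlapping ranges were Bmp8a, Bmper, Inhba, Bmp7, Fstl3, Gdf10, Inhbb and Bmp1, of which Bmp8a lost its call without replicate 1 (-2.13) or 2 (-2.07), Bmp1 without replicate 1 (-0.99) or 2 (-0.95) and Inhbb without replicate 1 (-0.94).

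Of the 12 other antagonist genes tested, 2 were higher and 2 lower in lymph node (33.3%), against 16.4% of all genes, 9.32% higher and 7.13% lower. Sostdc1, which encodes a BMP and Wnt antagonist, had 112 to 295 CPM in lymph node and 0 to 11.2 CPM in other fibroblasts (8.51 ± 0.30, edgeR's quasi-likelihood test, adjusted p = 1.89e-21). The convertase genes Pcsk5 (-3.07 ± 0.16) and Pcsk6 (-2.82 ± 0.28) were lower. Of 16 receptor genes only Tgfbr1 was called (6.25%, below the share of all genes), as lower (-1.39 ± 0.19). Summed mural cell markers were 1054 to 1238 CPM in lymph node libraries and at most 217 CPM in other fibroblasts, and leukocyte markers 397 to 883 CPM, and their part in these values was not tested.

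Some members differed between visceral and subcutaneous fat fibroblasts. The test rests on the spread of libraries within each depot, so its p-values do not cover variation between depots of a region. Visceral against subcutaneous fat gave 11 calls of 33 (33.3%, against 8.23% of all genes tested), 3 higher (against 4.29%) and 8 lower (against 3.94%). Bmp3 averaged 4.74 ± 0.421 CPM in omentum, 3.28 ± 1.35 CPM in mesentery and 1.33 ± 0.239 CPM in epididymal fibroblasts, against 39.4 ± 12.3 CPM in inguinal and 52.6 ± 14.1 CPM in brown adipose fibroblasts (SD, n = 3 each). The regions did not overlap (-4.04 ± 0.22, edgeR's quasi-likelihood test, adjusted p = 4.44e-15). Chrdl1 had 24.8 to 94.6 CPM in the visceral depots, against 209 to 374 CPM in the subcutaneous ones (-2.23 ± 0.16), and Bmp7, which supports brown fat formation, 2.46 to 11.9 CPM against 18.3 to 24.2 CPM (-1.73 ± 0.15). Both were separate between regions, as was Bmp8a at 0.0241 to 0.556 CPM against 1.09 to 2.96 CPM (-3.84 ± 0.36).

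Higher in visceral fibroblasts were Fstl3, which encodes an activin-binding follistatin relative, Inhbb and Grem1. Fstl3 had 13.9 to 33.9 CPM in the visceral depots, against 5.35 to 7.56 CPM in the subcutaneous ones (1.80 ± 0.15), and Inhbb 2.1 to 15.5 CPM against 0.287 to 1.28 CPM (3.15 ± 0.29), both with no overlap. Grem1 (3.87 ± 0.78) overlapped, since epididymal fat had 0.0618 to 0.0891 CPM. Bmp5 (-2.20 ± 0.30), Bmp2 (-1.59 ± 0.26) and Gdf15 (-1.54 ± 0.34) were lower with overlapping ranges. Fst was just past the fold threshold (-1.02 ± 0.13) and lost its call without brown adipose replicate 1 (-0.95), mesentery replicate 1 (-0.97) or omentum replicate 2 (-0.94), without the acinar-rich libraries (-0.97), and under 4 other settings.

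Inguinal fibroblasts had the highest Fst, with 76.1, 73.4 and 78.4 CPM, above every other fibroblast library (1.39 ± 0.14, edgeR's quasi-likelihood test, adjusted p = 4.93e-09). Their Grem1 had 0.0287 CPM in replicate 1 and no count in the other libraries of the group (-6.55 ± 0.84). Without inguinal replicate 1, and so with inguinal fat at 0, Grem1 was no longer called lower in epididymal (-3.49) or brown adipose fibroblasts (-2.97), nor was it without the acinar-rich libraries (-3.65 and -3.12). Fstl3 was called lower in inguinal fibroblasts (-1.03) but not without the acinar-rich libraries (-0.95). Gdf15 was higher in inguinal fibroblasts (2.38 ± 0.34) at 6.75, 2.96 and 2.07 CPM. Bmp2 was called higher in inguinal (1.28 ± 0.28) and brown adipose fibroblasts (1.09 ± 0.28), and each call was lost without replicate 1 of its own group (0.81 and 0.78). Fstl1 had its highest level in inguinal fibroblasts, 6325, 6994 and 6787 CPM, but the value of 1.01 ± 0.12 lay at the fold threshold and fell under it without any of 5 single libraries (0.978 to 0.998) and with DESeq2 (0.96). In brown adipose tissue Bmp5 was higher (3.74 ± 0.24) at the 71.9, 18.6 and 27.9 CPM given above, and Fst (1.05 ± 0.14) lost its call without replicate 1 (0.91) or the acinar-rich libraries (0.96).

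Among the visceral depots, epididymal fibroblasts had the highest Bmper, 522, 522 and 647 CPM, against group means of 35.3 to 322 CPM elsewhere (2.22 ± 0.25), and the highest Inhbb, 9.35, 15.5 and 9.92 CPM (2.19 ± 0.23), neither overlapping the other tissues. Chrdl1 was called lower there (-1.19 ± 0.21) but not without replicate 1 (-0.90). Mesentery fibroblasts were higher for Grem1, with 6.47, 2.94 and 2.09 CPM (2.62 ± 0.28), Fstl3 (1.35 ± 0.14) and Gdf10 (1.18 ± 0.17). Omentum fibroblasts were lower for Bmp4, with 10.1, 6.84 and 8.96 CPM and group means of 11.9 to 40 CPM elsewhere (-1.30 ± 0.22), for Bmp7 (-1.78 ± 0.21) and for Bmp5 (-3.28 ± 0.47). The omentum calls of Bmper (1.12), Inhbb (1.07), Gdf15 (1.67), Gdf9 (-1.30) and Bmp6 (-1.002) were lost without the acinar-rich libraries, which leave 1 omentum fibroblast library and no pancreas library, with values of 1.16, 1.16, 0.77, -0.71 and -0.81.

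Pancreas fibroblasts had the lowest Chrdl1, 11.7 and 9.86 CPM, against group means of 45.6 to 678 CPM elsewhere (-3.54 ± 0.30, edgeR's quasi-likelihood test, adjusted p = 1.05e-10), below every other fibroblast library. They had the highest group means of Bmp4 (42.7 and 37.3 CPM, 1.20 ± 0.21) and Bmp6 (10.9 and 10.5 CPM, 2.18 ± 0.27). These libraries also carry the most acinar RNA, whose part was not tested. In spleen fibroblasts Grem1 (3.29 and 4.34 CPM, 2.59 ± 0.32), Gdf10 (239.9 and 242 CPM, 1.22 ± 0.20) and Fstl3 (24 and 29.6 CPM, 1.18 ± 0.17) were higher. Gdf15 was called lower in pancreas fibroblasts (-3.37 ± 0.86) but not without replicate 1 (-2.63). Spleen fibroblasts were called lower for Bmp5, Bmp3 and Bmp7, and higher for Inhbb, and all of these calls were lost without spleen replicate 2 (-2.44, -1.26, -1.03 and 0.81). With 2 libraries a group, calls fell to 5 of 8 without pancreas replicate 1, and to 4 or 3 of 7 without spleen replicate 1 or 2.

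Across the 12 group means, members with a mean of at least 5 CPM gave 231 pairs with a median Pearson r of 0.0524, given as a description since the points share libraries. The closest pairs were Fstl1 and Bmper (r = 0.92), Gdf10 and Bmper (0.89) and Gdf10 and Fstl1 (0.87), all high in fibroblasts. Bmp4 and Bmper (-0.86) and Gdf11 and Twsg1 (-0.84) were the most opposed. Of the 33 members tested, 31 were called in at least 1 of the 19 comparisons, and Gdf1 and Bmp8b, a germ cell and brown fat ligand gene, in none. Bmp8b had 0 to 1.73 CPM over all libraries and Gdf1 0 to 0.661 CPM. Inha, the inhibin alpha subunit gene, was higher in pancreas fibroblasts at 0.98 and 1.53 CPM (1.504 ± 0.42), a call lost without replicate 2 (1.17) and with DESeq2 (1.51).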

How the data were processed

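RNA of sorted mouse cells was sequenced as polyadenylated RNA in 34 libraries. The authors deposited a table of whole-number gene counts per library, counted from uniquely aligned reads per the file headers. Salmon (version not given) and GRCm38 are named in the submitters' processing notes. Which step gave the counts, the annotation and strand handling are not given in the sources used here. Groups follow the labels. The 37 members and all gene lists were chosen with earlier results of these data known, so p-values are adjusted over all 25705 genes tested.

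Counts were fitted in edgeR 4.0.16 (R 4.3.3; TMM, filterByExpr with a minimum count of 10, glmQLFit robust, glmQLFTest) with a coefficient per group over all libraries, in 19 comparisons, and the test was checked on simulated counts. Exon lengths come from GENCODE M21. Named were all members, with values in every library for called members of at least 10 CPM, and up to 4 called genes of each pathway list. A gene of these lists is counted but not reported here by name. Alternatives were RLE size factors, no filter, a replicate block, only the groups compared, DESeq2 1.42.0, leaving out each library, and, added after seeing the data, leaving out libraries of at least 1000 acinar CPM. Replicate libraries were no copies, with a chi-square per degree of freedom of 24.8 to 359. A floor of 3 counts covers counting error only.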

Additional observations from a re-analysis of the deposited data

Results flagged for a closer look

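The difference between mesothelial cells and fibroblasts was not the same in omentum, mesentery and epididymal fat for 13 members, by the joint test of the depots in edgeR's quasi-likelihood fit (adjusted p after each name, log2 fold changes in the order omentum, mesentery, epididymal fat). The BMP ligand genes were Bmp3 (2.06e-07; -1.25, 1.10, 3.79), Bmp5 (0.000423; 0.79, 1.497, -2.07), Bmp2 (0.0063; 1.59, 0.57, -1.52), Bmp7 (0.00417; 0.84, -0.46, -0.78) and Bmp6 (0.0351; -0.77, 0.12, -1.78). Tgfb2 (0.00299; -1.27, -0.19, -1.53), Gdf10 (0.00333; -8.26, -8.13, -6.35) and the proteinase gene Bmp1 (0.0307; -0.42, -1.501, -0.94) followed. The antagonist genes were Chrdl1 (2.12e-06; 0.83, 0.50, 3.16), Bmper (9.75e-05; -6.36, -3.73, -7.77), Fstl1 (0.000167; -1.68, -2.91, -3.10), Fstl3 (0.01; 0.38, -0.52, 0.74) and Fst (0.0179; -1.65, -2.23, -0.999). Bmp7 and Fstl3 were called in no depot by itself. Without the 8 acinar-rich libraries 7 of the 13 kept the call, and Bmp7, Bmp6, Gdf10, Bmp1, Fst and Fstl3 lost it (adjusted p = 0.178, 0.124, 0.0828, 0.293, 0.139 and 0.0695). With no filter on low counts Bmp1, Fst and Fstl3 lost it (0.0535, 0.083 and 0.0678), and with only the groups compared Fst did (0.0569). Bmp1 and Bmp6 lost the joint call on leaving out any of 7 single libraries each, and Fst on leaving out epididymal mesothelial replicate 2 or mesentery fibroblast replicate 2, where its range over depots was 0.89 and 1.06 on the log2 scale.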

How the results depend on the processing

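Of 229 member calls in 19 comparisons, 160 were kept under every alternative run for their comparison and 69 were lost under at least 1; no called value changed sign. RLE size factors ended 4 calls, no filter 8, DESeq2 12, with 1 more left without an adjusted p, and the removal of the 8 acinar-rich libraries 43, in all comparisons but pancreas. Only the groups compared, run in 10 comparisons, ended 6, and 4 more had too few counts to be tested there (Gdf5, Gdf6 and Nog). The removal of the acinar-rich libraries left 7 of 13 members for the difference between depots, 1 of 4 for omentum against mesentery and 3 of 8 for mesentery against epididymal mesothelial cells, and gave 5 calls for omentum fibroblasts, 4 of them among the 9; it also leaves fewer libraries to test. With only the groups compared, mesentery against epididymal mesothelial cells gave 5. Leaving out each library moved the count to 5 to 9 in pancreas and 3 to 7 in spleen fibroblasts. With replicate numbers as a block, the mean mesothelial comparison kept 17 calls and 1 call in all was lost, Bmp6 in omentum fibroblasts (-0.95). Whether the numbers pair the samples was not settled. Deviations of 177 same-numbered pairs had a median correlation of -0.00251, from -0.276 to 0.374. For 352 pairs of different number the median was -0.00151, from -0.363 to 0.439. Of the 34 libraries, 16 correlated best with their own number. A median over pairs from all groups cannot show whether samples are paired within a depot. Members under 1 CPM rest on few counts, and groups of 2 or 3 libraries limit all calls.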
